A study of Mus musculus with 18 samples.

Results

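The report concerns messages that sediment with heavy polysomes in murine osteosarcoma cells that have lost Prmt1, the gene for protein arginine methyltransferase 1. The libraries were chosen by their labels as every Heavy library of the series, 3 from Prmt1 knockout cells and 3 from control cells, 6 of the 18 libraries in all, and every gene of the table was considered. The cells are a murine osteosarcoma (mOS) line derived from tumors of mice with conditional knockout of p53 and Rb, and both groups carry those losses, floxed Prmt1 alleles (Prmt1 f/f) and a stably expressed CreER recombinase. Knockout cells (Heavy_KO) received tamoxifen as 4OHT, which activates CreER, whereas control cells (Heavy_Control) received the ethanol vehicle. The controls' genotype label reads wild type although the protocol has one floxed line for both groups, the strain is given as Mix background, and the age label is post natal day 299 for every library. Every comparison therefore sets Prmt1 loss together with 4OHT exposure and CreER activation against vehicle in a line of 1 tumor type, and no 4OHT-treated line without floxed alleles is among the samples, so these cannot be told apart.

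Cytoplasmic lysates made with cycloheximide, which stalls elongating ribosomes on their messages, were spread over a 10 to 50% sucrose gradient. Fractions with more than 3 ribosomes a message were pooled as Heavy, those with fewer than 3 as Light, and the cleared lysate was kept as Total, each with 3 knockout and 3 control libraries. A message's share of Heavy RNA depends on how much of it the cell holds, on how densely it is loaded and on its coding length, because a longer open reading frame has room for more ribosomes; it is not a rate of translation. PRMT1 places asymmetric dimethyl marks on arginines of histones and of RNA-binding proteins with glycine- and arginine-rich segments, among them splicing and translation factors. In mammals it is the main enzyme for that mark, and its loss in cells has been tied to altered splicing and DNA repair.

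The knockout Heavy libraries held 40.4, 37.9 and 32.3 M reads (M for 1000000) assigned to genes and the control Heavy libraries 39.8, 35.7 and 44.2 M. Values are given in CPM, the count of a gene's reads in 1000000 reads of its library. Replicates differed by more than counting error, and knockout library 1 stood apart: over 11251 genes with at least 1 CPM its root-mean-square distance from the knockout mean was 0.34 on the log2 scale, against 0.17 and 0.25 in knockout libraries 2 and 3 and 0.18, 0.13 and 0.13 in the control libraries. The labels do not say that replicates are separate cultures. The p-values therefore measure how far the libraries of the fit spread, all 18 of the series, and that spread may be technical. All libraries are bulk RNA, in which fewer cells of a type and less RNA per cell cannot be told apart.

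The bone tumor label was checked against 12 osteoblast markers, of which 5 were called higher and 3 lower in knockout cells. The counts were 2 and 3 without control library 1, without knockout library 1 or with the Heavy libraries alone, 3 and 3 without control library 2, and 3 and 2 without control library 3. Col1a1, the main chain of bone collagen, was abundant, with 4661, 2329 and 3189 CPM in knockout and 1042, 1571 and 1366 CPM in control libraries, and Runx2, the master transcription factor of osteoblasts, had 59.7, 43.9 and 45.4 CPM against 47.9, 72.1 and 72.4 CPM. Sp7, which acts after Runx2, had 0.841, 2.95 and 1.92 CPM against 8.69, 6.94 and 7.65 CPM, and markers of mature osteoblasts and osteocytes such as Bglap, Bglap2 and Dmp1 were near 0 in every Heavy library. Markers of other cells were checked in the same way, and their part in the results below was not tested. The summed level of 9 macrophage markers was 12.3 to 16 CPM in knockout and 9.16 to 10.2 CPM in control libraries, with Ptprc and Aif1 at 0 and 3 of the 9 called higher. The 9 endothelial markers summed to 134 to 159 CPM against 86 to 89.2 CPM, nearly all of it Eng, with Tek at 0 and 4 called higher. The 9 epithelial markers summed to 7.44 to 14 CPM against 1.52 to 1.66 CPM, led by the keratin Krt14 at 9.08, 5.33 and 3.91 CPM against 0.829, 0.7 and 0.633 CPM, and 4 were called higher. The defining endothelial and epithelial genes Pecam1, Cdh5, Epcam and Cdh1 were at or near 0.

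Prmt1 itself (EntrezID 15469, chr7:44976755-44986420, minus strand of GRCm38.p6) had 64.4, 121 and 145 CPM in knockout and 412, 378 and 370.1 CPM in control Heavy libraries (log2 change -1.88, SE 0.21, adjusted p = 7.87e-06). Every knockout library was below every control library, and knockout library 1 was the lowest. The residual reads were not split by exon, and the labels do not name the deleted exons. Of the other family members, Prmt3, a cytosolic enzyme that methylates a small-subunit ribosomal protein, had 33.9, 36.4 and 39.1 CPM against 52.6, 55.6 and 57.9 CPM (log2 change -0.59, SE 0.09, adjusted p = 0.000174). Prmt7, which makes only monomethylated arginine, had 163, 172 and 167 CPM against 285, 285 and 284 CPM (log2 change -0.76, SE 0.10, adjusted p = 2.54e-05). Both fell, with no overlap between the groups. Carm1, Prmt5 and Prmt6 did not pass the test, at log2 changes of -0.38 (adjusted p = 0.111), -0.01 (adjusted p = 0.994) and -0.17 (adjusted p = 0.18). Median-of-ratios scaling called Carm1 and Prmt6 lower (adjusted p = 0.018 and 0.0215), as did leaving out knockout library 3 for Carm1 (0.0217); without knockout library 1 the log2 change of Carm1 was -0.09 (adjusted p = 0.553). Prmt2 was called higher at 0.35 (adjusted p = 0.0439). That call was lost with quantile normalization (adjusted p = 0.0731), with median-of-ratios scaling (0.36), without control libraries 1, 2 or 3 (0.0723, 0.0725 and 0.147) and without knockout libraries 2 or 3 (0.102 and 0.182). It was also lost with the coding-length trend removed (adjusted p = 0.0579) and with the Heavy libraries alone (0.209).

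Of the 17515 genes tested, 5061 differed in Heavy RNA at an adjusted p under 0.05 (limma, Benjamini-Hochberg over all genes tested), which is 28.9% of them. Of the 5061, 3242 were higher in knockout cells, or 18.5% of genes tested, and 1819 were lower, or 10.4%. Among the 11251 genes with at least 1 CPM in Heavy RNA, 22.9% were higher and 15.1% lower. Counts in the gene groups below are best read beside those shares, as most members of most groups reach 1 CPM. Among the 9198 genes of at least 5 CPM the knockout and control libraries did not overlap for 46.6%, with the knockout higher for 25.7% and lower for 20.9%. Genes named in the groups below were mostly chosen by low p or after their values were seen. Where their libraries do not overlap, that separation was therefore largely set by the choice. At least 2-fold changes on the log2(CPM + 1) scale numbered 747 higher and 232 lower. The split depended on the scaling: 64.1% of calls were higher on the deposited scale, 48.9% after quantile normalization and 44.8% after median-of-ratios scaling of the recovered reads. The median gene with at least 1 CPM stood at 0.04, at -0.05 and at -0.13 under these 3 scalings, and changes are best read relative to that shift. With the 6 Heavy libraries fitted alone, without the spread estimated from Light and Total libraries, 2976 genes were called. Fold changes, standard errors (SE) and adjusted p-values below are from that limma fit of all 18 libraries, in log2(CPM + 1), which understates the change of genes of few CPM.

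**Figure D1:**
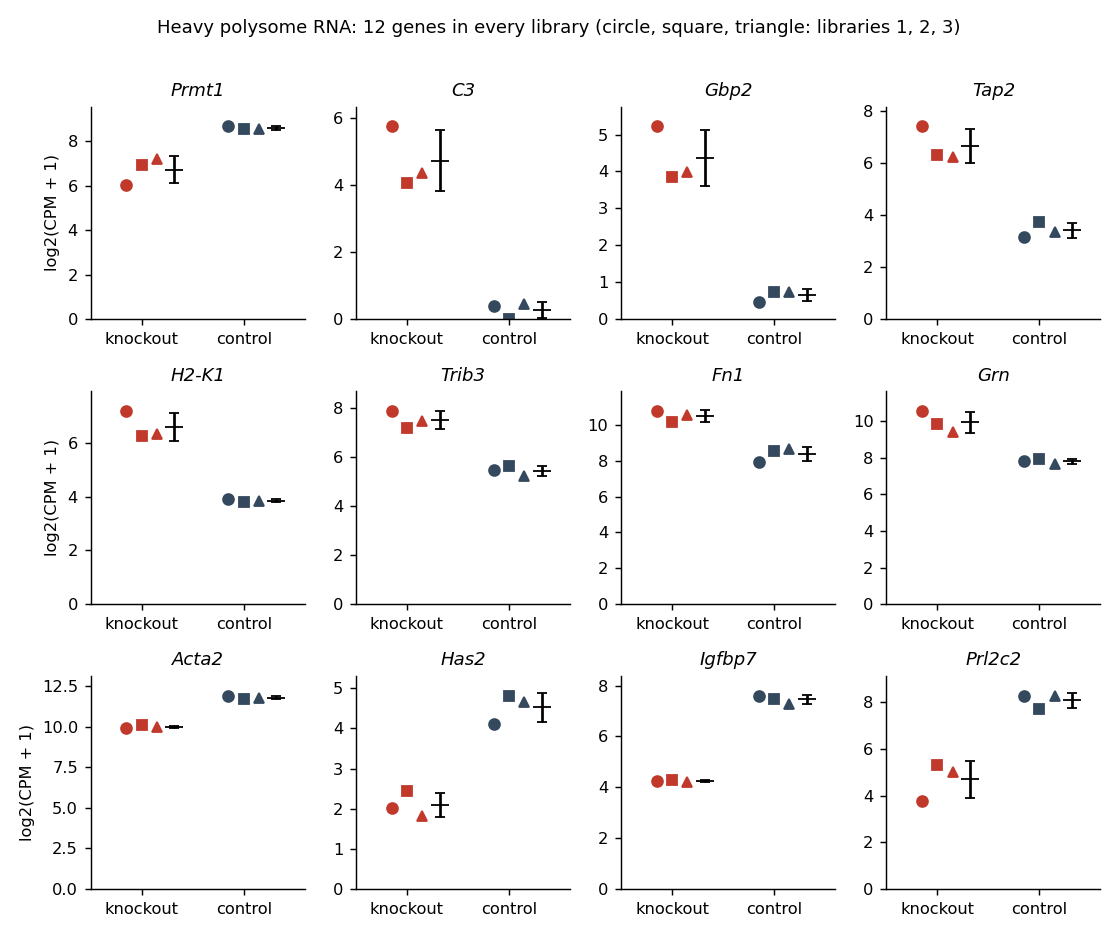
Levels of 12 genes in log2(CPM + 1) in each Heavy library, 3 knockout libraries left and 3 control libraries right of each panel; circle, square and triangle are libraries 1, 2 and 3, and the black marks are the mean and SD of each group. In every panel the knockout and control points do not overlap, a trait by which some of these genes were chosen. C3, Gbp2, Tap2, H2-K1, Trib3, Fn1 and Grn were higher and Prmt1, Acta2, Has2, Igfbp7 and Prl2c2 lower in knockout cells.

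Among genes of at least 5 CPM the highest changes were led by C3 and Gbp2. C3, the central component of complement, had 53.4, 15.5 and 19.7 CPM in knockout libraries against 0.301, 0 and 0.362 CPM in controls (log2 change 4.45, SE 0.39, adjusted p = 5.26e-07), and it was 7.55 in the median-of-ratios fit, where no 1 is added to the level. Gbp2, a guanylate-binding protein induced by interferon, had 36.7, 13.5 and 14.9 CPM against 0.377, 0.672 and 0.679 CPM (log2 change 3.71, SE 0.30, adjusted p = 2.55e-07). Msln, mesothelin, a surface glycoprotein, had 53.2, 19.3 and 30.5 CPM against 1.83, 1.2 and 1.49 CPM (log2 change 3.71, SE 0.31, adjusted p = 3.08e-07). In these 3 genes the lowest knockout library was many times the highest control library, and knockout library 1 was the highest. Sfrp1, a secreted Wnt antagonist, had 46.5, 18.2 and 11.6 CPM against 0.779, 0.784 and 1.02 CPM (log2 change 3.60, SE 0.45, adjusted p = 1.99e-05). Gpnmb, a transmembrane glycoprotein of melanosomes and bone cells, had 27.5, 16.9 and 12.7 CPM against 0.804, 1.09 and 0.701 CPM (log2 change 3.36, SE 0.26, adjusted p = 1.24e-07). Ly6a, the stem cell antigen Sca-1, had 71.6, 45 and 58.9 CPM against 4.75, 5.8 and 4.3 CPM (log2 change 3.31, SE 0.33, adjusted p = 1.83e-06). Controls held these messages at low but measurable shares. Genes were listed here only where knockout and control libraries did not overlap, so that separation was set by the choice. The 5 CPM limit is a mean over both groups. Messages near 0 in controls, such as C3, passed it through the knockout libraries. Scara5, a ferritin receptor, Plin4, a lipid droplet coat protein, and Parp10, an ADP-ribosyltransferase, followed at log2 changes of 3.48, 3.28 and 3.64 (adjusted p = 0.000644, 1.52e-07 and 3.18e-08); Scara5 was at 5.56 in the median-of-ratios fit.

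Several proliferins were among the genes with the lowest changes. Prl2c2, a proliferin of the prolactin family, had 12.8, 38.3 and 30.9 CPM in knockout and 309, 209.6 and 312 CPM in control libraries (log2 change -3.40, SE 0.40, adjusted p = 9.48e-06). Prl2c copies are nearly identical, so reads may be split among them; Prl2c5, for example, had 1.24, 3.32 and 1.89 CPM against 28.7, 19 and 26.7 CPM (log2 change -3.07, adjusted p = 2.77e-06). Igfbp7, a secreted protein related to the insulin-like growth factor binding proteins, had 18, 18.5 and 17.3 CPM against 194, 177 and 154 CPM (log2 change -3.21, SE 0.10, adjusted p = 1.47e-11); its locus overlaps Polr2b in the annotation. The 3 knockout libraries agree closely on Igfbp7 and spread more widely on the proliferins. These lowest genes, too, were listed only where the groups did not overlap. Avpr1a, a vasopressin receptor, had 0.841, 1.45 and 1.24 CPM against 15.3, 15.7 and 15.9 CPM (log2 change -2.94, SE 0.12, adjusted p = 4.97e-10). Has2, the main hyaluronan synthase of connective tissue cells, had 3.04, 4.38 and 2.54 CPM against 16.4, 27.2 and 24 CPM (log2 change -2.44, SE 0.25, adjusted p = 3.11e-06). Fabp5, a fatty acid-binding protein, had 56.4, 94.7 and 121 CPM against 454, 399 and 386 CPM (log2 change -2.24, SE 0.18, adjusted p = 2.53e-07). These 3 fell in each knockout library. Angptl2, Cxcl5, a neutrophil chemokine, C1qtnf3, a secreted C1q-related protein, and Notum, which inactivates Wnt ligands, changed by -2.32, -2.24, -2.20 and -2.11 on the log2 scale, with adjusted p of 1.19e-06, 1.11e-06, 8.73e-08 and 4.06e-07.

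Antigen presentation by MHC class I rose as a group in Heavy RNA. Class I molecules carry peptides cut by the immunoproteasome, pumped by the TAP transporter and loaded in the endoplasmic reticulum to the cell surface, and interferon is known to raise their messages. All 17 members tested were called higher and none lower, with a median log2 change of 1.58, beside 0.02 for all genes tested. Their summed level was 2318, 1696 and 1876 CPM in knockout libraries, against 720.3, 714 and 672 CPM in controls. H2-K1, a classical class I heavy chain, had 147, 76.7 and 79.6 CPM in knockout and 14.3, 12.9 and 13.5 CPM in control libraries (log2 change 2.75, SE 0.25, adjusted p = 9.22e-07). Tap2, a TAP subunit, had 170.3, 77.7 and 74.6 CPM against 7.94, 12.1 and 9.25 CPM (log2 change 3.24, SE 0.30, adjusted p = 9.44e-07), and Tap1, its partner, 29.7, 14.5 and 13 CPM against 2.96, 3.28 and 2.71 CPM (log2 change 2.24, SE 0.26, adjusted p = 8.02e-06). Each knockout library exceeded every control for these genes, which were chosen with their values known. H2-D1, H2-T23 and H2-M3, further heavy chains, rose by 1.58, 2.16 and 1.38 log2 units, and the peptide editor Tapbp, the trimming protease Erap1 and the immunoproteasome subunit Psmb10 by 1.96, 1.11 and 0.83. B2m, the shared light chain, had 203, 266 and 314 CPM against 172, 183 and 176 CPM (log2 change 0.53, SE 0.16, adjusted p = 0.0212), and the call was lost with median-of-ratios scaling (adjusted p = 0.0714), without control library 1 or 3 (0.0641 and 0.0551) and without knockout library 2 or 3 (0.0567 and 0.0881). The B2m call was also lost with the Heavy libraries alone (adjusted p = 0.0826). Heavy chains are close paralogs, so reads may be shared among them.

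Of 50 interferon-response genes, 49 passed the filter on low values, and of these 35 were called higher and none lower (median log2 change 0.88). By role these were 9 of 12 nucleic acid sensors, 7 of 11 signalling proteins and transcription factors, and 19 of 26 effectors. The filter kept any gene above 0 in at least 3 of the 18 libraries. Among the sensors Ddx58, the RIG-I helicase, had 16.2, 7.73 and 7.5 CPM in knockout and 1.86, 2.74 and 3.33 CPM in control libraries (log2 change 1.59, SE 0.24, adjusted p = 9.67e-05). Eif2ak2, the double-stranded RNA kinase PKR, had 6.21, 4.8 and 6.05 CPM against 2.14, 2.58 and 1.97 CPM (log2 change 1.05, SE 0.20, adjusted p = 0.000994). The knockout and control values did not overlap for either. Among the signalling proteins Irf9, a subunit of the factor that drives interferon-stimulated genes, had 34.2, 20.4 and 21.6 CPM against 12, 11.5 and 11.5 CPM (log2 change 1.02, SE 0.18, adjusted p = 0.000385). Irf1 and Stat2 rose by 1.09 and 1.59 log2 units (adjusted p = 0.00117 and 0.000229). Among the effectors Bst2, tetherin, which retains budding viruses, had 27.9, 29.9 and 37.9 CPM against 10.1, 10.1 and 7.94 CPM (log2 change 1.66, SE 0.16, adjusted p = 1.06e-06), and Isg15, a ubiquitin-like modifier, had 29.2, 15.6 and 18.8 CPM against 5.43, 6.92 and 4.18 CPM (log2 change 1.75, SE 0.41, adjusted p = 0.00439). Interferon-induced GTPase Irgm1 and the pro-apoptotic Xaf1 rose by 1.75 and 3.16. Knockout library 1 was the highest for the group, whose median over the control mean was 1.26, 0.64 and 0.75 in knockout libraries 1, 2 and 3.

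The interferon-stimulated response element, searched as GAAA, any 2 bases and GAAA on both strands in the 250 bases before each RefSeq start, was found in 15 of 38 interferon genes with a window (39.5%) and in 3.21% of 13324 tested genes with one. Of the 15, 11 were called higher and none lower, and the median log2 change was 1.21 with the element and 0.83 without. Class I genes had the other order, at 1.35 with it and 1.53 without. Over all tested genes with a window the medians were 0.05 and 0.02. Examples are shown because these genes moved together; the capitals mark the match, and the sequences are from RefSeq, GRCm38.p6, written along each gene's strand. Gbp2 lies at chr3:142620594-142620623 on the plus strand, Bst2 at chr8:71537577-71537606 on the minus strand and Irgm1 at chr11:48871425-48871454 on the minus strand, and H2-T23, of the class I group (2 of 14 with the element, 14.3%), at chr17:36032806-36032835 on the minus strand. A match is a description of the sequence and not a bound site.
Gbp2: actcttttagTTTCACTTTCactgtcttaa
Bst2: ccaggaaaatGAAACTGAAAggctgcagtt
Irgm1: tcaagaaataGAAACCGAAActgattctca
H2-T23: atcctactgcTTTCTCTTTCataaagacac

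Inflammatory genes moved less uniformly. Of 26 genes of the NF-kB pathway 9 were called higher and 1 lower (median 0.18). The noncanonical subunits Relb and Nfkb2 had 33.1, 29.7 and 38.4 and 156, 97.6 and 108 CPM in knockout libraries, against 21.3, 20.2 and 18.1 and 68.6, 64.7 and 74.8 CPM in controls (log2 changes 0.73 and 0.76, adjusted p = 0.000164 and 0.00103). Ccl2, a monocyte chemokine, had 66.1, 46.9 and 59.9 CPM against 8.94, 11.9 and 10.6 CPM (log2 change 2.35, SE 0.20, adjusted p = 4.08e-07), and Csf1, the macrophage growth factor, had 2190.1, 1865 and 1707 CPM against 1235, 1338 and 1279.8 CPM (log2 change 0.57, SE 0.10, adjusted p = 0.000347). All 4 were higher in each knockout library than in any control.

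Matrix genes were more often higher than lower among those called. Of 50 genes of the extracellular matrix 32 were called higher and 3 lower (median 0.74), and with the Heavy libraries fitted alone 20 and 1; without knockout library 1 the counts were 25 and 5 and the median 0.52. The summed level was 34822, 20766 and 22890 CPM in knockout libraries, against 14293, 17713 and 16340 CPM in controls, so knockout library 1 held the most. By role, 11 of 15 collagen chains, 14 of 22 glycoproteins and proteoglycans and 7 of 13 crosslinking and hydroxylation enzymes rose, while 1 of the enzymes fell (median of the enzymes 0.45). Col4a1, a basement membrane collagen, had 17.3, 15.8 and 17.2 CPM in knockout and 0.879, 1.2 and 0.882 CPM in control libraries (log2 change 3.16, SE 0.19, adjusted p = 1.33e-08), and Col4a2, whose gene lies head to head with it, had 6.53, 8.15 and 8.87 CPM against 0.603, 0.98 and 1.24 CPM (log2 change 2.19, SE 0.26, adjusted p = 9.87e-06). Lama5, a laminin chain, had 28.6, 13.3 and 20.5 CPM against 1.38, 0.924 and 1.58 CPM (log2 change 3.20, SE 0.21, adjusted p = 3.81e-08). The lowest knockout library of each is far above the highest control. Fn1, fibronectin, had 1773, 1140.1 and 1509 CPM against 244, 369.5 and 401 CPM (log2 change 2.13, SE 0.19, adjusted p = 4.88e-07). Col1a1, whose library values stand above, rose by 1.32 log2 units (adjusted p = 0.000606), while Col1a2, the other chain of type I collagen, had 4304, 1587 and 2254 CPM against 1050.2, 1459.6 and 1388 CPM (log2 change 0.95, SE 0.30, adjusted p = 0.0242). The Col1a2 call was lost without control library 1 (adjusted p = 0.101) and without knockout library 1 (log2 change 0.56, adjusted p = 0.121). It was also lost with the coding-length trend removed (adjusted p = 0.0525) and with the Heavy libraries alone (0.126). Fbln2, Nid1, Hspg2 and Loxl2, a collagen-crosslinking oxidase, rose by 1.66, 1.77, 1.44 and 1.68. Loxl1, an oxidase that crosslinks elastin, was among the 3 that fell, with 142, 116 and 116 CPM against 359.6, 410.4 and 303 CPM (log2 change -1.51, SE 0.14, adjusted p = 1.27e-06).

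Many receptors for matrix and growth factors were called higher. Of 13 integrins 8 were called higher and none lower (median 0.51; 5 with median-of-ratios scaling or with the Heavy libraries alone), and 8 of 16 receptor tyrosine kinases higher and none lower (median 0.27). With quantile normalization 7 integrins were higher and 2 lower, with the coding-length trend removed 5 and 2, and without knockout library 3 they were 8 and 1; the kinases had 6 higher and 1 lower with that trend removed. Itga3, a laminin-binding integrin, had 496, 285 and 342 CPM in knockout and 94.8, 83 and 90.8 CPM in control libraries (log2 change 2.01, SE 0.16, adjusted p = 2.56e-07). Itgav and Itgb5, which pair as a vitronectin receptor, rose by 0.98 and 0.62 log2 units (adjusted p = 0.00342 and 0.000266). Pdgfra, a receptor for platelet-derived growth factor, had 89.2, 38.9 and 37.7 CPM against 9.7, 17 and 13.7 CPM (log2 change 1.88, SE 0.31, adjusted p = 0.00028). Each was apart between the groups, a trait that their choice favored. Of 13 genes of the insulin-like growth factor pathway 9 were higher and 1 lower (median 0.69). Igf2r, the receptor that clears Igf2 to lysosomes, had 89.2, 65 and 58.6 CPM against 12.6, 19.6 and 16.7 CPM (log2 change 2.06, SE 0.16, adjusted p = 1.67e-07), and the binding proteins Igfbp4 and Igfbp6 rose by 1.92 and 1.55. The 1 lower member was Igfbp7.

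Bone lineage genes went both ways. Of 26 members 6 were called higher and 8 lower (median -0.02), and without control library 3 the counts were 3 and 4. Besides Sp7 (log2 change -1.66, SE 0.28, adjusted p = 0.000321), Dlx5, a homeobox factor upstream of it, had 4.72, 4.27 and 3.01 CPM in knockout and 8.26, 11.6 and 9.41 CPM in control libraries (log2 change -1.11, SE 0.15, adjusted p = 4e-05), and Alpl, the alkaline phosphatase of mineralizing cells, had 39.4, 28.7 and 25.8 CPM against 7.94, 11 and 8.21 CPM (log2 change 1.67, SE 0.16, adjusted p = 1.37e-06). Twist1, a mesenchymal factor, changed by -0.65 log2 units (adjusted p = 0.00533). Runx2 did not pass the test (log2 change -0.35, SE 0.16, adjusted p = 0.108), but was called lower without control library 1 (adjusted p = 0.0112), without knockout library 1 (0.0305) and with median-of-ratios scaling (0.00694). Atf4 and Fgfr1, which are also in this list, were among the 6 higher ones.

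The TGF-beta pathway was as mixed, with 6 of 20 higher and 8 lower (median 0.04). The ligands Tgfb2 and Tgfb3 had 17.1, 10.6 and 11.2 and 34.5, 23.3 and 30.2 CPM in knockout libraries, against 23.7, 37.9 and 35 and 78.7, 80.8 and 73.7 CPM in controls (log2 changes -1.25 and -1.39, adjusted p = 0.000361 and 9.51e-07). Ctgf, a matricellular target, had 243, 406 and 383 CPM against 932, 731 and 895 CPM (log2 change -1.33, SE 0.28, adjusted p = 0.00196), and Smad6, an inhibitor of bone morphogenetic protein signalling, changed by -0.87 (adjusted p = 0.00394). Of 20 Wnt pathway genes 5 were higher and 2 lower, but with median-of-ratios scaling, with the coding-length trend removed and without knockout library 1 the lower calls outnumbered the higher ones (4 and 6, 4 and 5, and 4 and 5). The counts of 5 and 2 are near or below the shares of all genes of at least 1 CPM, 22.9% higher and 15.1% lower.

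Lysosomal genes rose across enzymes and membrane proteins. Lysosomes break down proteins, lipids and sugars, and many of their genes share a short promoter element read by the TFEB family. Of 32 members tested 26 were called higher and 2 lower (median 0.82). Their summed level was 16352, 14920 and 13615 CPM in knockout libraries, against 7901, 7745 and 7265 CPM in controls, and each knockout library was above every control. Grn, progranulin, a lysosomal and secreted glycoprotein, had 1537, 917 and 697 CPM in knockout and 227, 244 and 205 CPM in control libraries (log2 change 2.14, SE 0.24, adjusted p = 6.23e-06). Ctsd, a lysosomal aspartic protease, had 1249, 937 and 824 CPM against 359.8, 327 and 335 CPM (log2 change 1.53, SE 0.16, adjusted p = 3.59e-06). Gla, which removes terminal galactose from glycolipids and is mutated in Fabry disease, had 61, 51.7 and 44.9 CPM against 18.5, 18.8 and 18.4 CPM (log2 change 1.44, SE 0.12, adjusted p = 1.93e-07). The groups were apart in all 3, which were chosen with their values known. Psap, the precursor of the saposins, the membrane glycoprotein Lamp1, the mannosidase Man2b1 and the hexosaminidase Hexa rose by 1.47, 0.81, 1.72 and 1.06 log2 units. Ctsb, a cysteine protease, had 1377, 1381 and 1174 CPM against 600.1, 573 and 519.9 CPM (log2 change 1.21, SE 0.11, adjusted p = 5.76e-07). The protease Ctsa rose by 1.68, in a locus that overlaps Neurl2 and Pltp. Of the 2 lower members, Glb1, the acid beta-galactosidase, had 18.1, 11.3 and 8.77 CPM against 32, 31.7 and 34 CPM (log2 change -1.34, SE 0.19, adjusted p = 5.19e-05).

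The core of the lysosomal CLEAR element, TCACGTGA on either strand, was in the same promoter window of 5 of 24 lysosomal genes (20.8%) and of 1.50% of all tested genes with a window. All 5 were called higher, with a median log2 change of 1.44, beside 0.73 for lysosomal genes without it. Gla at chrX:134601181-134601210 on the minus strand, Ctsd at chr7:142387907-142387936 on the minus strand and Ctsa at chr2:164833743-164833772 on the plus strand are shown with the match in capitals, from RefSeq, GRCm38.p6, because they are the named members that hold it.
Gla: gagatctcggTCACGTGAgcaactctcggc
Ctsd: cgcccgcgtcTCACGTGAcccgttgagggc
Ctsa: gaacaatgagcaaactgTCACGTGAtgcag

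The integrated stress response was higher in part. In this pathway phosphorylated eIF2 slows general initiation while Atf4 is made, and Atf4 raises genes of amino acid supply and stress. Of 38 members 19 were called higher and 1 lower (median 0.47). The list's median over the control mean was 0.87, 0.26 and 0.36 in knockout libraries 1, 2 and 3, and without knockout library 1 the counts were 18 and 2 and the median 0.29. Atf4 had 524, 349.8 and 401 CPM in knockout and 224, 224 and 200.3 CPM in control libraries (log2 change 0.95, SE 0.15, adjusted p = 0.000181). Trib3, a pseudokinase, had 235, 143 and 174 CPM against 42.6, 47.8 and 35.9 CPM (log2 change 2.08, SE 0.26, adjusted p = 1.79e-05), Chac1, which degrades glutathione, 80.1, 58.4 and 65.1 CPM against 26.3, 28.1 and 24.6 CPM (log2 change 1.32, SE 0.22, adjusted p = 0.000233), and Ddit3, the transcription factor CHOP, 43, 35.2 and 40.3 CPM against 13.5, 13.4 and 12.5 CPM (log2 change 1.52, SE 0.15, adjusted p = 2.08e-06). Each knockout library was above every control in these genes, chosen with their values known. Atf3, Sesn2, which restrains mTOR complex activity, Nupr1 and Vldlr, a lipoprotein receptor, rose by 1.51, 1.37, 0.71 and 1.58 log2 units. Ppp1r15a, the GADD34 subunit that lets eIF2 be dephosphorylated, had 62.1, 55.3 and 59.5 CPM against 30.4, 30.8 and 32.1 CPM (log2 change 0.90, SE 0.10, adjusted p = 5.55e-06). The element joined by Atf4 and C/EBP factors, TGATGNAA on either strand, was in the window of 9 of 33 of these genes (27.3%; 2.63% of all), 4 of them called higher, and the median log2 change was 0.29 with it and 0.60 without. Nupr1 at chr7:126625561-126625590 on the minus strand and Chac1 at chr2:119351039-119351068 on the plus strand are shown with the match in capitals, read from RefSeq, GRCm38.p6.
Nupr1: aagggccagaTTGCATCAgacagggcttgg
Chac1: ttccctgccgTTGCATCActcctgccaggt

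Cytosolic aminoacyl-tRNA synthetases, which charge tRNAs and include known Atf4 targets, had 9 of 20 members called higher and 1 lower (median 0.47), but the rise was unequal: the list's median over the control mean was 1.0, 0.30 and -0.02 in knockout libraries 1, 2 and 3. Without knockout library 1 the counts were 6 higher and 4 lower and the median 0.14. Aars had 1232, 639.9 and 592 CPM in knockout and 266, 269 and 290.3 CPM in control libraries (log2 change 1.49, SE 0.20, adjusted p = 3.44e-05), and Eprs 106, 59.7 and 53 CPM against 26.7, 36.3 and 32.7 CPM (log2 change 1.11, SE 0.21, adjusted p = 0.000784). Of 28 genes of glycolysis and the hypoxia response 14 were higher and none lower (median 0.43; 9 with the Heavy libraries alone). Hk1 and Hk2, hexokinases, had 131, 77.6 and 81.4 and 60.9, 49.8 and 54.8 CPM, against 36.6, 39 and 42.2 and 30.6, 31.5 and 36.1 CPM (log2 changes 1.24 and 0.74, adjusted p = 3.33e-05 and 0.000687). Ndrg1 and Adm, hypoxia-responsive genes, rose by 1.66 and 1.50. Of 30 genes of cholesterol and fatty acid synthesis 8 were higher and 2 lower (median 0.32, or 0.06 without knockout library 1). Among all genes of at least 1 CPM the shares were 22.9% higher and 15.1% lower.

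Chaperones and folding enzymes were divided, beside 22.9% higher and 15.1% lower of all genes of at least 1 CPM. Of 24 genes of the unfolded protein response 4 were higher and 5 lower, with a median of 0.07 that was -0.05 with median-of-ratios scaling and -0.07 without knockout library 1. The sensors Ern1 and Atf6 rose by 1.29 and 0.77 log2 units (adjusted p = 4.56e-06 and 0.000856). Manf, a secreted protein of the endoplasmic reticulum, had 66.1, 89.5 and 109 CPM in knockout and 157, 152 and 137 CPM in control libraries (log2 change -0.77, SE 0.15, adjusted p = 0.00083), and Creld2, Sdf2l1 and Dnajb11 changed by -0.73, -0.61 and -0.50 (adjusted p = 0.000432, 0.0096 and 0.00064). Cytosolic and mitochondrial heat shock chaperones had 4 of 19 higher and 4 lower (median 0.20). Their counts were 2 and 4 without knockout library 1 (median -0.06), 9 and 4 without knockout library 3, 1 and 5 with median-of-ratios scaling and 0 and 1 by limma with the Heavy libraries alone. None of the 8 subunits of the CCT chaperonin, which folds actin and tubulin, was called by limma (0 of 8).

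**Figure D2:**
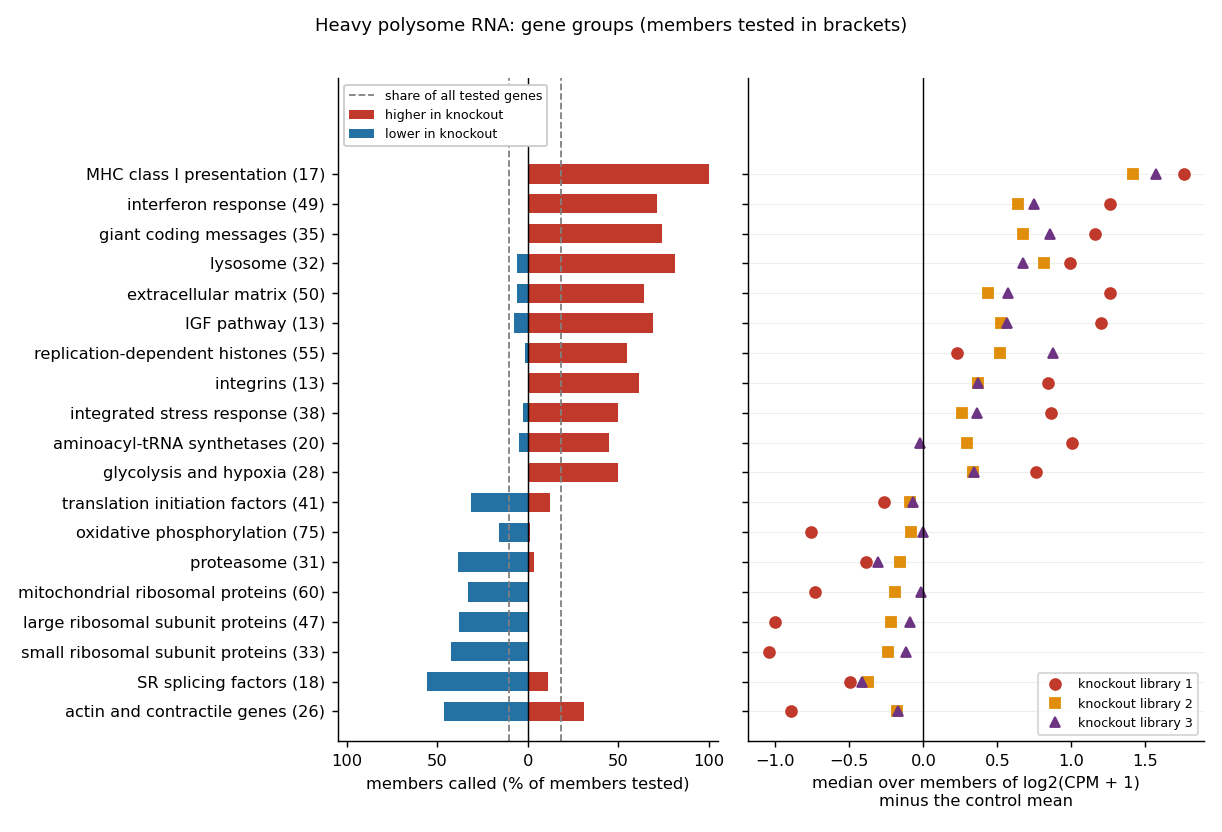
Left, the percentage of tested members of 19 gene groups called higher (red, right of 0) or lower (blue, left of 0) in knockout Heavy RNA. Dashed lines mark the 18.5% and 10.4% of all genes tested. Among genes of at least 1 CPM, as most plotted members are, the shares are 22.9% and 15.1%. Right, the median over members of log2(CPM + 1) minus the control mean in each knockout library. MHC class I and lysosomal genes are above 0.6 in all 3 libraries. The large- and small-subunit ribosomal protein groups are near -1.0 in knockout library 1 and between -0.24 and -0.09 in libraries 2 and 3. Mitochondrial ribosomal proteins are at -0.73, -0.19 and -0.01 in knockout libraries 1, 2 and 3.

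Messages of the translation machinery took a smaller share of Heavy RNA in knockout cells, by an amount that depended on knockout library 1. Of 47 large-subunit ribosomal proteins none was called higher and 18 lower (median -0.45), and of 33 small-subunit proteins none higher and 14 lower (median -0.48). Large-subunit messages summed to 31822, 49820 and 50388 CPM in knockout libraries, against 62392, 57730 and 55838 CPM in controls, and small-subunit messages to 16295, 26911 and 28134 CPM against 34848, 32383 and 30769 CPM. Every knockout sum was below every control sum, but knockout library 1 was far below the other 2. Without it the medians were -0.17 and -0.20 with 10 and 8 members called lower. Leaving out control library 1 gave 5 and 4, control library 2 gave 12 and 4, control library 3 gave 12 and 10, knockout library 2 gave 27 and 19, and knockout library 3 gave 39 and 28. Scaling moved these counts too, to 9 and 9 with quantile normalization and to 41 and 29 with median-of-ratios scaling, and with the Heavy libraries alone they were 1 and 2, but no member was called higher under any of these. Rps6, the substrate of S6 kinase, had 1043, 1637 and 1470.3 CPM in knockout and 2334, 1979 and 2029 CPM in control libraries (log2 change -0.63, SE 0.14, adjusted p = 0.00291), and Rps4x had 1212, 1636 and 1512 CPM against 2394, 1992 and 2112 CPM (log2 change -0.58, SE 0.12, adjusted p = 0.00112); with quantile normalization the changes were -0.42 and -0.35. Rpl10 had 1097, 1563 and 1590.0 CPM against 2231, 2022 and 2029 CPM (log2 change -0.58, SE 0.12, adjusted p = 0.00196; -0.34 with quantile normalization). Rps6 and Rpl10 lost their calls with the Heavy libraries alone (adjusted p = 0.0673 and 0.0634).

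Ribosomal protein messages are known to begin with a C followed by a run of pyrimidines, through which mTOR controls their loading. A start of that kind, a C within the first 4 bases followed by at least 5 pyrimidines, was found at the RefSeq start of 18 of 59 cytosolic ribosomal protein genes with a window (30.5%) and of 6.58% of all tested genes with one, on the gene's own strand. The median log2 change was -0.45 with it and -0.47 without. Rps6 at chr4:86857348-86857372 on the minus strand and Rpl18 at chr7:45718066-45718090 on the plus strand are shown, with the pyrimidine run in capitals, because they are members of the group; the run starts at base 1 of Rps6 and at base 2 of Rpl18, counted from the annotated start.
Rps6: cgggcCTCTTTTTCgtgacgcctcc
Rpl18: aggccgCTCTTTCCCCgcccactcc

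Initiation and elongation factors were more often lower than higher among those called. Of 41 initiation factors 5 were called higher and 13 lower (median -0.17), made up of 3 and 3 of 14 genes of eIF4F and its partners and 2 and 10 of the 27 others. Leaving out any single control library or knockout library 1 gave 8 lower, the median was -0.06 without knockout library 1, and the Heavy libraries alone 2 higher and 4 lower. Eif2s1, the eIF2 subunit phosphorylated under stress, had 175, 199 and 161 CPM in knockout and 236, 263 and 272 CPM in control libraries (log2 change -0.53, SE 0.13, adjusted p = 0.00489), whereas Eif3a, the largest eIF3 subunit, had 40.5, 31.6 and 49 CPM against 17.1, 22 and 24.9 CPM (log2 change 0.88, SE 0.21, adjusted p = 0.00396). The cap-binding protein Eif4e and its repressor Eif4ebp1 did not pass the test, at -0.29 and 0.43 log2 units (adjusted p = 0.12 and 0.056). Eif4e was called lower without knockout library 3 (adjusted p = 0.0307) and with median-of-ratios scaling (0.00929), and was at -0.16 without knockout library 1 (0.407). Eif4ebp1 was called higher without knockout library 1 (0.0109) and with the coding-length trend removed (log2 change 0.54, adjusted p = 0.000598). It was also called with a mean of at least 1 CPM (0.0384) and a pseudocount of 0.1 (0.0482). With median-of-ratios scaling and without knockout library 3 Eif4ebp1 was at 0.26 and 0.27 (0.234 and 0.224). The scaffold Eif4g1 was called higher at 0.62 (adjusted p = 0.0042; 0.0663 with the coding-length trend removed). Of 10 elongation and termination factors 1 rose and 3 fell. Eef2, the translocase, had 4139, 3180.2 and 2818 CPM against 2001, 1883 and 2169.6 CPM (log2 change 0.73, SE 0.15, adjusted p = 0.0018), and Eef1g, Eef1b2 and Eef1d, subunits of the exchange factor, changed by -0.52, -0.84 and -0.94 (adjusted p = 0.00147, 0.000344 and 2.5e-05).

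Mitochondrial ribosomal proteins had none of 60 called higher and 20 lower (median -0.33), and nuclear-encoded subunits of oxidative phosphorylation 1 of 75 higher and 12 lower (median -0.25). Of all genes of at least 1 CPM 22.9% were higher and 15.1% lower, so the share of lower oxidative subunits was near that of all such genes. Both depended on knockout library 1: per library the medians over the control mean were -0.73, -0.19 and -0.01 for the mitochondrial ribosome and -0.76, -0.08 and -0.0044 for oxidative phosphorylation. Without that library the counts were 0 higher and 10 lower and 4 higher and 2 lower. Without control library 1 they were 0 and 8 and 1 and 0, without control library 2 they were 0 and 12 and 1 and 2, and without knockout library 3 they were 0 and 36 and 2 and 35. Median-of-ratios scaling gave 0 and 37 and 1 and 37, and the Heavy libraries alone 0 and 5 and 1 and 0. Mrpl16 had 45.3, 52.4 and 53.3 CPM in knockout and 92.4, 78.7 and 77.6 CPM in control libraries (log2 change -0.71, SE 0.12, adjusted p = 0.000405), a call kept under every alternative. Sdha, the flavoprotein of succinate dehydrogenase, was the member of the oxidative list called higher, with 286, 189 and 156 CPM against 96.4, 109 and 121 CPM (log2 change 0.90, SE 0.16, adjusted p = 0.000495). Of 31 constitutive proteasome subunits 1 was higher and 12 lower (median -0.26), with 6 lower without knockout library 1 or control library 3 and 3 without control library 1.

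Median changes in Heavy RNA rose with coding length above 300 nt, while the bin of up to 300 nt stood above those of 300 to 900 nt. Genes with coding sequences of over 6000 nt had a median log2 change of 0.60 (277 genes with at least 1 CPM, 59.9% called higher and 2.89% lower), those of over 2700 and up to 6000 nt 0.34 (1621 genes), of over 1500 and up to 2700 nt 0.12 (3001 genes), of over 900 and up to 1500 nt -0.05 (3010 genes), of over 600 and up to 900 nt -0.13 (1510 genes), of over 300 and up to 600 nt -0.16 (1199 genes), and of up to 300 nt -0.11 (183 genes). The 3 knockout libraries agreed on long messages, at 0.83, 0.38 and 0.57 above 6000 nt, and not on short ones, at -0.57, -0.06 and 0.15 between 300 and 600 nt. Only knockout library 1 rose through all bins. The lowest bin was 600 to 900 nt in knockout library 2 (-0.09) and 900 to 1500 nt in knockout library 3 (0.0013). In Total RNA the same bins went only from -0.13 for the shortest to 0.09 for the longest, and in Light RNA from -0.53 to 0.42. Removing the trend with length left 5340 genes called in Heavy RNA, 49.8% of them higher.

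**Figure D3:**
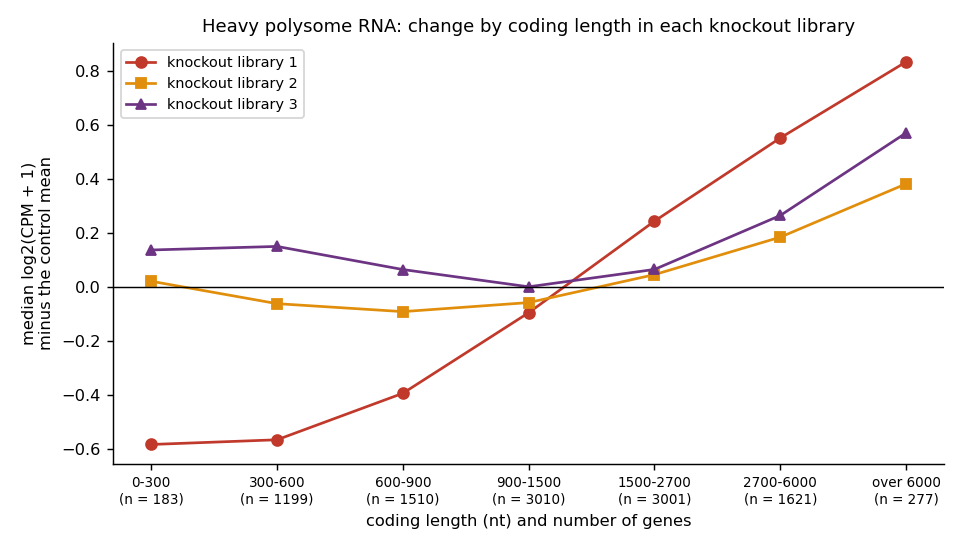
Median log2(CPM + 1) minus the control mean in 7 bins of coding length (nt, with the number of genes of at least 1 CPM), for each of the 3 knockout Heavy libraries. All 3 lines lie above 0 beyond 2700 nt, and knockout library 1 alone lies far below 0 up to 900 nt.

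Of 35 giant coding messages, chosen for open reading frames of great length, 26 were called higher and none lower (median 0.91; 20 higher and 4 lower with the trend removed). Their summed level was 2583, 1826 and 2094 CPM in knockout libraries, against 743, 975 and 903 CPM in controls. Plec, plectin, a cytoskeletal linker, had 247, 173 and 256 CPM in knockout and 79.6, 84.5 and 82.6 CPM in control libraries (log2 change 1.42, SE 0.16, adjusted p = 7.3e-06). Dync1h1, the heavy chain of cytoplasmic dynein, had 130.4, 123 and 112 CPM against 34, 38.5 and 42.5 CPM (log2 change 1.65, SE 0.14, adjusted p = 3.33e-07), and Lrp1, an endocytic receptor, 429, 271 and 283 CPM against 75.6, 99.6 and 87.5 CPM (log2 change 1.87, SE 0.17, adjusted p = 5.83e-07). All knockout values exceed all controls. Of 32 short coding messages none was called higher and 4 lower (median -0.16), and without knockout library 1 the counts were 3 and 3. The share of lower calls was not above the 15.1% of all genes of at least 1 CPM. Tmsb4x, the actin-binding thymosin, had 17.5, 34.4 and 27.4 CPM against 64.6, 67.6 and 64.4 CPM (log2 change -1.33, SE 0.21, adjusted p = 0.000197).

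Cytoskeletal genes split by coding length. Of 26 actin and contractile genes 8 were called higher and 12 lower (median -0.48, or -0.19 without knockout library 1). The 8 higher ones had coding sequences of 2676 nt (Actn1) or more and the 12 lower ones of 1131 nt (Acta2) or less. Actn1 lost its call without control library 1 or knockout library 1 (adjusted p = 0.0731 and 0.0552) and with the Heavy libraries alone (0.0918). Among the higher ones Myh9, nonmuscle myosin, had 1072, 790.2 and 805 CPM in knockout and 313, 324 and 437 CPM in control libraries (log2 change 1.31, SE 0.21, adjusted p = 0.000155). Smooth muscle genes were among the lower ones. Acta2, smooth muscle actin, had 948, 1074 and 993 CPM against 3842, 3347 and 3448 CPM (log2 change -1.82, SE 0.11, adjusted p = 1.22e-08), and Cnn1, calponin, 29.7, 22.7 and 25.6 CPM against 129, 93.2 and 118 CPM (log2 change -2.08, SE 0.19, adjusted p = 9.78e-07). Knockout values for Acta2 and Cnn1 are tight and far from the controls. Tpm1, a tropomyosin, had 876, 1099.8 and 1216 CPM against 2306, 2020.2 and 2244 CPM (log2 change -1.05, SE 0.14, adjusted p = 3.27e-05), and Tagln, transgelin, 147, 301 and 269.7 CPM against 800.4, 608 and 677 CPM (log2 change -1.59, SE 0.25, adjusted p = 0.000172), in a locus that overlaps Pcsk7. Actb, among the most abundant messages, did not pass the test (log2 change -0.22, SE 0.12, adjusted p = 0.189; 0.044 with median-of-ratios scaling). Of 11 tubulins 1 rose and 2 fell, and without knockout library 1, 1 rose and 7 fell.

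Cell cycle and repair genes were more often lower than higher among those called. Of 45 mitotic genes 2 were called higher and 12 lower (median -0.09), of 46 DNA replication genes 7 and 15 (median 0.02), and of 36 DNA repair genes 5 and 9 (median -0.0034). The shares of all genes of at least 1 CPM were 22.9% higher and 15.1% lower. Mcm2 and Mcm3, subunits of the replicative helicase, had 514, 375 and 342 and 448, 328 and 269.9 CPM in knockout libraries, against 263, 227 and 268 and 191, 186 and 211 CPM in controls (log2 changes 0.68 and 0.80, adjusted p = 0.00464 and 0.0015). Tyms, which makes thymidylate, had 80.9, 120.5 and 109 CPM against 219.7, 192 and 198 CPM (log2 change -0.99, SE 0.12, adjusted p = 2.06e-05). Aurkb, a mitotic kinase, had 75.2, 97 and 90.7 CPM against 176, 183 and 182 CPM (log2 change -1.04, SE 0.13, adjusted p = 2.1e-05), and Cdk1, the kinase that drives entry into mitosis, 302, 373 and 327 CPM against 553, 497 and 503 CPM (log2 change -0.63, SE 0.11, adjusted p = 0.000473). Xrcc1, a scaffold of single-strand break repair, had 35.5, 47 and 39.9 CPM against 75.5, 81.7 and 75.6 CPM (log2 change -0.92, SE 0.12, adjusted p = 2.05e-05), and Mre11a, a nuclease of double-strand break repair, 20.5, 15.5 and 13.5 CPM against 24.4, 32.4 and 32.8 CPM (log2 change -0.83, SE 0.15, adjusted p = 0.000591). Each of these named genes was apart between the groups, which their choice by low p largely set, and so were 46.6% of all genes of at least 5 CPM.

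Messages of splicing factors and other RNA-binding proteins, a class that includes known PRMT1 substrates, were more often lower than higher among those called. Of 18 SR splicing factors 2 were called higher and 10 lower (median -0.49), and the 3 knockout libraries were alike, at -0.50, -0.37 and -0.42. Srsf7 had 262, 286 and 248 CPM in knockout and 442, 416 and 416 CPM in control libraries (log2 change -0.68, SE 0.10, adjusted p = 9.74e-05), Srsf2 583, 630.4 and 611 CPM against 940.1, 931 and 897 CPM (log2 change -0.60, SE 0.09, adjusted p = 0.000146), and Srsf6 292, 347 and 328 CPM against 471, 502 and 498 CPM (log2 change -0.61, SE 0.10, adjusted p = 0.000253). No knockout library reaches a control in these, a trait that their choice by low p favored. The 2 higher members, Son and Srrm2, are the scaffold proteins of nuclear speckles. Of 38 hnRNP and RGG proteins 2 were higher and 8 lower (median -0.11; 0 and 16 with median-of-ratios scaling). Serbp1, an RGG protein that binds ribosomes, had 782, 917 and 770.2 CPM against 1271, 1369 and 1396 CPM (log2 change -0.71, SE 0.12, adjusted p = 0.000281), and the cold-shock domain protein Ybx1 and the cold-inducible Cirbp changed by -0.57 and -1.10 log2 units (adjusted p = 0.000513 and 1.13e-05). Of 38 ribosome biogenesis genes 4 were higher and 9 lower (median -0.19); Fbl, fibrillarin, the rRNA methyltransferase and a known PRMT1 substrate, had 268, 336 and 278 CPM against 469.9, 464 and 444 CPM (log2 change -0.65, SE 0.11, adjusted p = 0.00031).

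Replication-dependent histones were more often higher than lower among those called. Of 55 tested 30 were called higher and 1 lower (median 0.54). Their summed level was 197, 239 and 301 CPM in knockout libraries, against 83.9, 83.6 and 57.9 CPM in controls. Hist1h2bc had 23.1, 32.6 and 41.7 CPM in knockout and 5.17, 4.59 and 3.85 CPM in control libraries (log2 change 2.56, SE 0.17, adjusted p = 3.81e-08), and Hist1h1c, a linker histone, 33.5, 41.4 and 45.1 CPM against 8.01, 9.94 and 6.22 CPM (log2 change 2.19, SE 0.14, adjusted p = 2.98e-08). These messages normally end in a stem-loop and lack a poly(A) tail, and copies of a histone are nearly identical, so levels depend on how reads were assigned.

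The p53 gene is lost in both groups, and of 31 genes known as p53 targets 10 were called higher and 4 lower (median 0.17). Cdkn1a, the p21 cell cycle inhibitor, had 22.9, 25.4 and 28.5 CPM in knockout and 5.58, 5.1 and 5.66 CPM in control libraries (log2 change 2.04, SE 0.14, adjusted p = 3.71e-08), and Gadd45a, a stress gene, 36.9, 37 and 43.2 CPM against 11.1, 12.3 and 11.1 CPM (log2 change 1.68, SE 0.21, adjusted p = 2.27e-05). Ccnd1, cyclin D1, had 266, 426 and 416 CPM against 208, 214 and 209 CPM (log2 change 0.78, SE 0.19, adjusted p = 0.00535), in a locus that overlaps LTO1, and Cdk6, its partner kinase, 33.9, 31.5 and 36.2 CPM against 44.9, 62.3 and 52.1 CPM (log2 change -0.62, SE 0.14, adjusted p = 0.00231). Myc had 281, 197 and 165 CPM against 130.2, 153 and 191 CPM and did not pass the test (log2 change 0.42, SE 0.18, adjusted p = 0.0989); it was called higher without control library 3 (adjusted p = 0.0463) or knockout library 3 (0.0223), and was at 0.21 without knockout library 1 (0.42). Of 27 apoptosis regulators 6 were higher and 2 lower (median 0.10), beside 22.9% higher and 15.1% lower of all genes of at least 1 CPM. Bcl2l11, the pro-apoptotic BH3 protein Bim, changed by 1.26 and Bcl2l1, the anti-apoptotic Bcl-xL, by 0.71 log2 units (adjusted p = 9.13e-08 and 0.000274). Neat1, the noncoding RNA of nuclear paraspeckles, had 23.7, 19.3 and 26.9 CPM against 8.26, 8.26 and 7.85 CPM in this cytoplasmic fraction (log2 change 1.40, SE 0.21, adjusted p = 0.000117).

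Most calls in Heavy RNA were shared with the input lysate, whose libraries have their own controls. In Total RNA 4628 genes were called, 26.4% of those tested (16.1% higher and 10.3% lower), and in Light RNA 6926, or 39.5% (26.8% higher and 12.7% lower). Of the 3242 genes higher in Heavy RNA, 2027 (62.5%) were also higher in Total RNA, which is 71.9% of the 2820 higher there, and 2671 (82.4%) in Light RNA, 56.8% of the 4702 higher there. Of the 1819 lower in Heavy RNA, 1199 (65.9%) were lower in Total RNA, 66.3% of the 1808 lower there, and 1055 (58.0%) in Light RNA, 47.4% of the 2224 lower there. None was called in the opposite direction in Total RNA and 40 of the lower genes were called higher in Light RNA. The labels do not say whether same-numbered fractions come from 1 lysate.

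By group, the immune and lysosomal changes had similar counts in all fractions. MHC class I genes were higher for 17 of 17 in Heavy, 16 in Total and 15 in Light RNA, with medians of 1.58, 1.80 and 1.95, and lysosomal genes for 26, 27 and 28 of 32, with medians of 0.82, 0.91 and 1.34. Matrix genes were higher for 32 of 50 in Heavy, 20 in Total and 32 in Light RNA. Giant messages were higher for 26 of 35 in Heavy RNA (median 0.91), against 12 in Total (median 0.19) and 16 in Light RNA (median 0.40). No ribosomal protein of either subunit was called in Total RNA, where the medians were -0.08 and -0.10, while in Light RNA 24 and 24 were lower. In Light RNA 14 of 31 proteasome subunits and 17 of 20 synthetases were higher. These counts are side by side and do not test a difference.

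The difference between the knockout effects in Heavy and Total RNA was tested as an interaction. It was called for 2 of 17515 genes, or 0.0114%, with 1388 at an unadjusted p under 0.05: 1 lower, 4833412C05Rik, and 1 higher, Cngb1, or 0.00571% in each direction. No member of the gene groups above was called, although the median difference of the 35 giant messages was 0.71, beside 0.01 over all genes tested. A p above the threshold does not show equal effects.

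**Figure D4:**
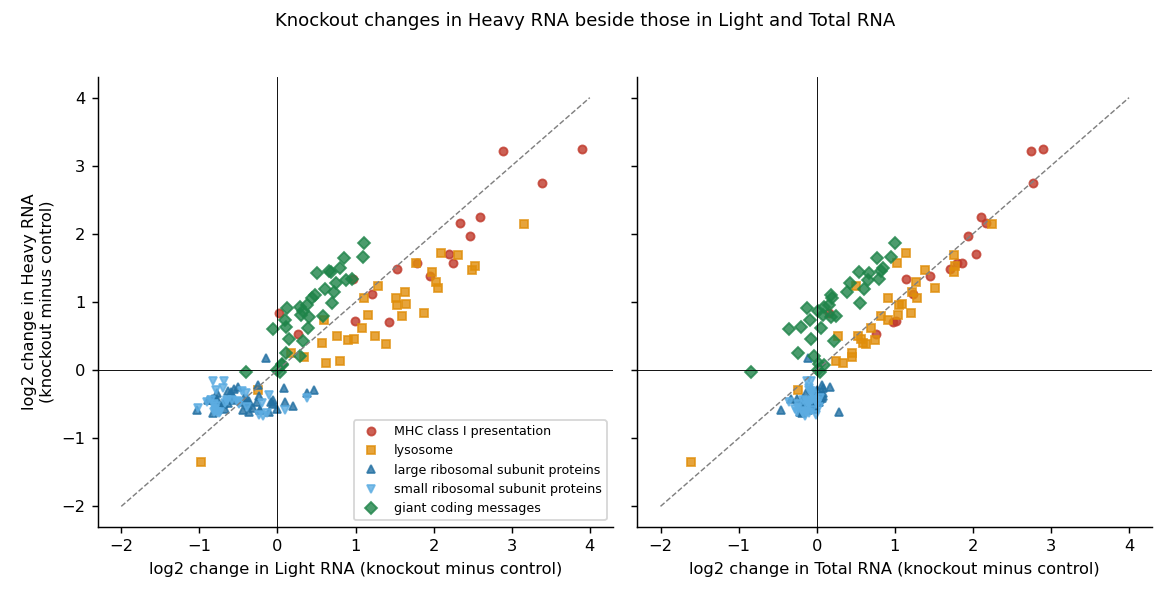
Log2 change in Heavy RNA (knockout minus control, vertical axis) against the change in Light RNA and in Total RNA (horizontal axes) for members of 5 gene groups, 1 point a gene, with a dashed line where the changes are equal. Giant messages lie mostly above the line in both panels, and lysosomal genes mostly below it in the Light panel.

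The difference between the knockout effects in Heavy and Light RNA was called for 503 genes, 2.87% of those tested, 62 with a higher (0.354%) and 441 with a lower (2.52%) effect in Heavy RNA. With the replicate number as a block, which pairs Heavy with Light libraries, 668 were called; the count fell to 8 (7 higher and 1 lower) with the Heavy and Light libraries fitted alone and was 15 (8 higher and 7 lower) with median-of-ratios scaling of reads, so most lower calls were not made under either, and it ran from 7 to 2011 when single libraries were left out. Prmt1 differed most among the named genes: its Heavy minus Light difference was -1.68 (SE 0.30, adjusted p = 0.0194), as its change was -1.88 in Heavy and -0.20 in Light RNA. Among lower differences were Cenpt, a kinetochore protein, at -1.13 (SE 0.17, adjusted p = 0.0116), the smooth muscle actin Actg2 at -1.12 (SE 0.18, adjusted p = 0.0134), and Nucb1, a calcium-binding Golgi protein, at -1.12 (SE 0.22, adjusted p = 0.0212). Ecm1, a matrix glycoprotein, and Lmf1, which matures lipases, were at -1.09 and -1.04. Several genes described above were among the 441: Eef1g at -0.91 (SE 0.15, adjusted p = 0.014), Ctsb at -0.84 (SE 0.15, adjusted p = 0.0194), Acta2 at -0.82 (SE 0.15, adjusted p = 0.0194) and Tpm1 at -0.84 (SE 0.20, adjusted p = 0.0335). Acta2 changed by -1.82 in Heavy and -1.0 in Light RNA, and Ctsb by 1.21 and 2.05. Higher differences were found for Plec at 0.92 (SE 0.23, adjusted p = 0.0424), Dync1h1 at 0.80 (SE 0.19, adjusted p = 0.0386), Slc26a6, an anion exchanger, at 0.82, and Psmb10 at 0.81 (SE 0.19, adjusted p = 0.0327). Plec changed by 1.42 in Heavy, 0.50 in Light and 0.67 in Total RNA.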

How the data were processed

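RNA from Heavy, Light and Total fractions of 1 mOS line was sequenced from 3 knockout and 3 control libraries each with a kit that does not mark strand. The authors deposited 1 table of log2 values for 19862 genes in 18 libraries. The values were tested and are log2(CPM + 1): returned to CPM, 100% of values are whole reads within 0.1. STAR, edgeR and mm10 are named in the submitters' processing notes, without versions; the read counter, annotation and strand setting are not stated there. Symbols were missing for 336 genes and 335 were filled from RefSeq; 27 symbols turned into dates were repaired.

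Genes above 0 in at least 3 libraries (17515) were fitted with limma 3.58.1 (R 4.3.3, statmod 1.5.0; trend and robust variances, 12 residual degrees of freedom) with 6 groups, and every adjusted p is limma's after Benjamini-Hochberg over those genes at a threshold of 0.05. An exact test of 3 against 3 libraries cannot go below 0.1. The fit was tested on simulated data. Tables were handled in Python 3.11.15 (pandas 2.3.3, numpy 2.4.6) and drawn with matplotlib 3.10.9. Promoter windows are from RefSeq, GRCm38.p6, the build that mm10 stands for. Coding length is the longest coding sequence over a gene's GENCODE transcripts, and 17400 genes of the table had one. Without strand, reads of overlapping genes cannot be told apart, and 54 of the 163 genes with values here overlap another annotated gene; near-identical copies (Prl2c genes, histones, class I heavy chains) are uncertain too.

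The gene groups were chosen with earlier results of these data known. Named genes are those of a rule: the 14 highest and 14 lowest called genes of at least 5 CPM whose groups did not overlap, the PRMT family, the 4 called members of lowest p in each group, the cap and growth genes Myc, Ccnd1, Eif4e, Eif4g1, Eif4ebp1 and Cdkn1a, Col1a1 and Sparc, the 10 most abundant genes, and the 6 highest and 6 lowest differences between fractions; the text prints part of them, and further members were chosen after their values were seen.

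Replicate numbers were checked for pairing by the correlation of deviations from group means. Same-numbered Heavy knockout and control libraries had -0.487, -0.276 and -0.414, so they were not treated as pairs in the main fit. The replicate block, an alternative for the Heavy count, did share its numbers between knockout and control. Same-numbered Heavy and Light libraries had 0.565, 0.641 and 0.263 in knockout and 0.451, 0.368 and 0.471 in control cells, all over 0.1, and were treated as pairs in an alternative. Unlike numbers were not always lower: Heavy knockout library 3 had 0.545 with Light knockout library 2. Same-numbered Heavy and Total libraries had 0.285, 0.535 and 0.030 in knockout and -0.506, 0.157 and -0.266 in control cells. Alternatives were quantile normalization, voom on the recovered reads with median-of-ratios scaling, other filters and pseudocounts, no variance trend, a replicate block, removal of the coding-length trend, the libraries compared fitted alone, and leaving out each library.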

Additional observations from a re-analysis of the deposited data

Results flagged for a closer look

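The change in Heavy RNA differed from that in Light RNA, by limma's test of the difference itself (Benjamini-Hochberg over 17515 genes), for 29 of the genes named above. With the Heavy and Light libraries fitted alone limma called 0 of the 29. All 29 had an unadjusted p under 0.05 and the same direction. They had been chosen from these same libraries, so that outcome was largely set in advance. With voom and median-of-ratios scaling 2 were called, with quantile normalization 11, and leaving out single libraries left 0 (without Light control library 3) to 29 (without Heavy knockout library 1). Each value is the Heavy minus Light difference of the knockout effects in log2 units. In lysosomal genes it was lower for Psap at -1.01 (adjusted p = 0.026), Ctsd at -0.99 (adjusted p = 0.0327) and Ctsb at -0.84 (adjusted p = 0.0194). The arginine methyltransferases gave Prmt1 at -1.68 (adjusted p = 0.0194) and Prmt3 at -0.51 (adjusted p = 0.0485). Cytoskeletal genes gave Acta2 at -0.82 (adjusted p = 0.0194), Actg2 at -1.12 (adjusted p = 0.0134), Actb at -0.89 (adjusted p = 0.0197) and Tpm1 at -0.84 (adjusted p = 0.0335). In the translation machinery it was lower for Eef1g at -0.91 (adjusted p = 0.014), Eef1d at -0.76 (adjusted p = 0.0299), Eif2s1 at -0.74 (adjusted p = 0.0373) and Rps4x at -0.68 (adjusted p = 0.0365). Cell cycle and repair genes gave Cenpt at -1.13 (adjusted p = 0.0116), Cdk1 at -0.79 (adjusted p = 0.0223), Aurkb at -0.73 (adjusted p = 0.0474) and Xrcc1 at -0.67 (adjusted p = 0.0407), and RNA-binding proteins Serbp1 at -0.73 (adjusted p = 0.0327) and Srsf7 at -0.60 (adjusted p = 0.0365). Genes of the secretory route and the matrix were lower too, with Nucb1 at -1.12 (adjusted p = 0.0212), Ecm1 at -1.09 (adjusted p = 0.0194), Lmf1 at -1.04 (adjusted p = 0.0221), Dnajb11 at -0.59 (adjusted p = 0.0287) and Igfbp7 at -0.61 (adjusted p = 0.0365). The difference was higher for Plec at 0.92 (adjusted p = 0.0424), Dync1h1 at 0.80 (adjusted p = 0.0386), Slc26a6 at 0.82 (adjusted p = 0.0437), Psmb10 at 0.81 (adjusted p = 0.0327) and Ppp1r15a at 0.57 (adjusted p = 0.0424).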

How the results depend on the processing

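The count of 5061 genes in Heavy RNA was 2976 (2076 higher and 900 lower) with the Heavy libraries fitted alone, 2852 of them shared with the 5061. Under the other alternatives it lay between 4705 and 5710, and leaving out 1 Heavy library gave 3951 (without control library 1) to 5593 (without knockout library 3). With the replicate number as a block shared by knockout and control it was 5124, although no pairing of knockout with control was found. The share of calls that were higher was 64.1%, against 48.9% with quantile normalization, 44.8% with voom and 49.8% with the length trend removed.

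The Heavy minus Total count of 2 was 0 by limma with voom, with a mean of at least 1 CPM, with a pseudocount of 0.1, with the length trend removed and with that and the replicate block. It was 1 with no filter and 1 with the replicate block alone, 4 without every knockout library 1, and 1 to 9 when single libraries were left out. The Heavy minus Light count of 503 was 152 with quantile normalization, 15 with voom (8 higher and 7 lower), 785 without the variance trend, 1872 without every knockout library 1, 668 with the replicate block, 8 (7 higher) with the Heavy and Light libraries alone and 10 (9 higher) with these and the block; leaving out single libraries gave 7 (without Light control library 3) to 2011 (without Heavy knockout library 1). The cause of these shifts was not tested. Of 155 named genes called in Heavy RNA, 148 were called under each of up to 17 alternatives, 7 were lost in at least 1, and none reversed. Named genes were largely chosen in these same data as called genes with large changes or low p. Their count therefore does not measure how stable the 5061 calls are. Depth limits genes below 1 CPM, where 1 is added to every level.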
